A study of Mus musculus with 8 samples.

Results

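Rgs1, Rgs2, Rgs3, Rgs10, Rgs14, Rgs16 and Rgs19 encode regulators of G protein signalling, and they were taken by symbol as 7 of the 20029 gene rows of the deposited expression table. RNA had been measured in 8 libraries of CD8+ T cells from MC38-OVA tumours, a mouse colon carcinoma line that carries the model antigen ovalbumin, injected under the skin. The 4 KO libraries (replicates 1 to 4) came from B6.129S4-Pglyrp1tm1.1Lky/J mice, labelled Pglyrp1 KO. Pglyrp1 encodes a secreted peptidoglycan-binding protein. The 4 WT libraries (replicates 6 to 9) came from C57BL/6J mice. All mice bore the same tumour line, and the labels give no age, sex or littermate relation. Each library was made from 1000 live cells sorted on CD45, TCRβ and CD8, with 4 mice stated for each genotype.

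RGS proteins speed up GTP hydrolysis by G protein alpha subunits and so shorten the signal of a G protein-coupled receptor. In T cells these receptors include those for chemokines, sphingosine-1-phosphate, prostaglandin E2 and adenosine, which guide migration or raise cyclic AMP. The R4 subfamily (here Rgs1, Rgs2, Rgs3 and Rgs16) has little beyond the RGS domain in its short forms, the R12 subfamily holds Rgs10 and the larger scaffold Rgs14, and Rgs19 belongs to the RZ subfamily.

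Values are called TPM here, after the name of the deposited table, once each library of its score was rescaled to a sum of 1000000. How the score was scaled, and so whether it is corrected for transcript length, is not given in the labels, and levels and shares compared between genes rest on that name. On this scale the step between neighbouring deposited values is 0.299 to 0.450 TPM, depending on the library. Per-library values are given in replicate order, 1, 2, 3, 4 for KO and 6, 7, 8, 9 for WT. The targeted gene, Pglyrp1, had a value of 0 in each KO library and of 123 to 209.6 TPM in WT. Markers of CD8 T cells were present in every library: the 10 genes of that list, Cd3e, Cd8a and Cd8b1 among them, summed to 6161 to 7041.5 TPM in KO and 6374 to 8557 TPM in WT. KO libraries 3 and 4 stood apart in myeloid markers. All 20 genes of the myeloid list were in the table, none was at 0 throughout, and their sum was 372, 295, 5412 and 8409.7 TPM in KO and 152 to 471 TPM in WT. WT libraries 6 and 9 stood apart in naive and memory T cell genes, whose 10-gene list summed to 2318 and 2081 TPM there, to 602 and 674 TPM in WT 7 and 8, and to 397 to 1399 TPM in KO libraries. The 10 B and plasma cell markers summed to 51.6 and 57.8 TPM in WT 6 and 9 and to 6.35 to 21.1 TPM elsewhere. The ranges for 12 natural killer markers were 936 to 3388 TPM in KO and 309.96 to 1152 TPM in WT, and for 10 CD4 and regulatory T cell markers 437 to 662 and 213 to 553 TPM. Of the latter, Cd4 itself was at 4.50, 4.84, 66.7 and 15.6 TPM in the KO replicates and 0.393 to 2.25 TPM in WT. Foxp3 overlapped, at 2.52 to 7.56 TPM in KO and 2.03 to 5.51 TPM in WT. The 8 erythroid and platelet markers found ranged from 4.84 to 1192 TPM in KO and 3.60 to 469 TPM in WT, with Hba-a2, Slc4a1 and Ppbp among those at 0 throughout. The 12 tumour and stromal markers ranged from 36.4 to 218 and 36.8 to 41.0 TPM, with Pdgfra at 0 throughout. In bulk RNA, fewer cells of a type and less RNA per cell cannot be told apart.

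The members were chosen by symbol with the KO and WT values of this table known, so their differences between genotypes are described with no test and support nothing further. In the limma fit over all 10732 genes tested, 0 of the 7 members passed a Benjamini-Hochberg adjusted threshold of 0.05, beside 0.0280% of all genes (0.0186% with higher and 0.00932% with lower values in KO). By an unadjusted limma p under 0.05 there were 3 members (1 with higher and 2 with lower KO values), beside 9.08% of all genes (6.01% higher and 3.07% lower). Over all genes that unadjusted threshold gave 645 higher and 329 lower, and 552 and 572 with quantile normalization. Groups of 4 did not overlap for 1 member that was higher in KO (Rgs16) and for 1 that was lower (Rgs14), beside 2.62% and 2.40% of all genes. Since values of this contrast chose the members, nothing is read from these counts. All 7 members passed the filter of at least 1 TPM in at least 4 libraries.

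Averaged over the 8 libraries, Rgs1 was the most abundant member at 437 TPM, above 97.3% of the genes tested. Rgs19, Rgs16 and Rgs10 followed at 150.3, 147 and 146 TPM, and these neighbours did not differ beyond their spread. Rgs14 stood at 64.0 TPM, Rgs3 at 52.1 TPM and Rgs2 at 26.6 TPM, still above 64.7% of the genes tested. Some members varied widely between libraries and others little. The highest library held 55.3 times the lowest for Rgs16, 4.10 times for Rgs1 and 3.19 times for Rgs2, but only 1.48 times for Rgs19, 1.65 times for Rgs14 and 1.66 times for Rgs3.

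**Figure D1:**
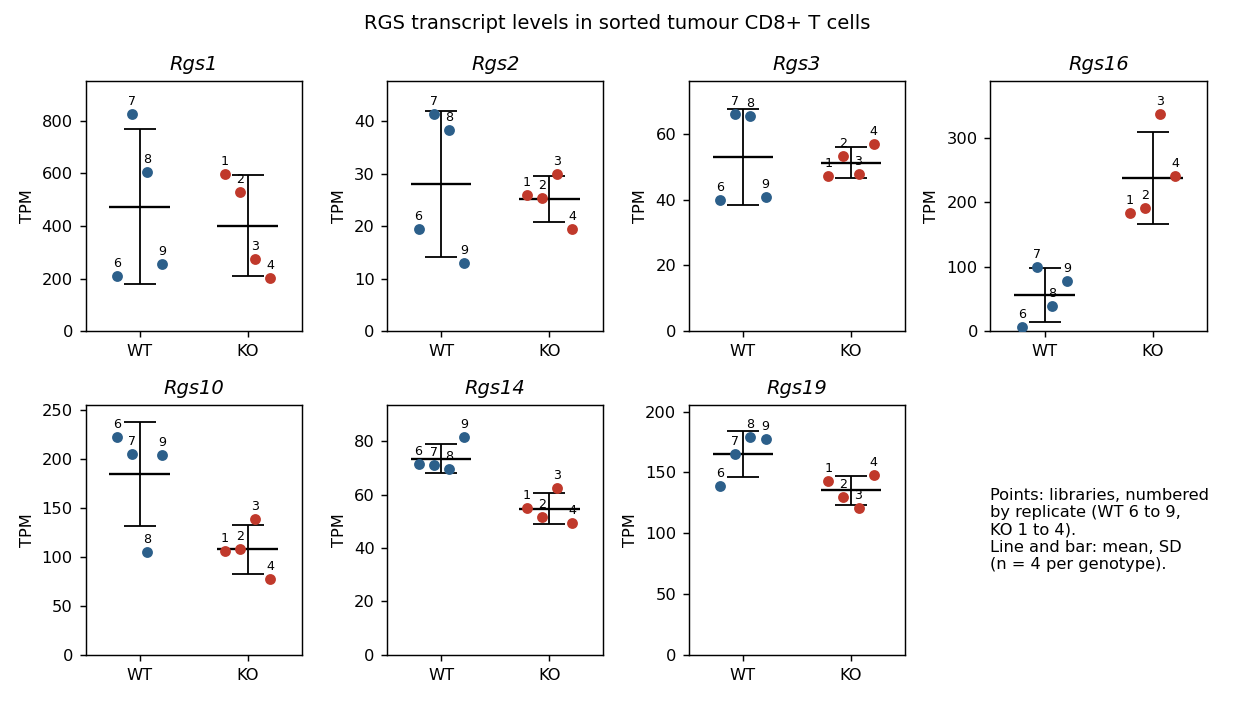
TPM (vertical axes, each from 0) of the 7 RGS genes in each library, by genotype (horizontal axes). Points are libraries numbered by replicate, and the line and bar are the mean and SD of 4. Rgs16 is at 183 TPM or more in every KO library and at 99.4 TPM or less in every WT library, while Rgs1, Rgs2 and Rgs3 split the WT libraries into 7 and 8 above 6 and 9.

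Rgs16, an R4 protein that acts on Gi and Gq alpha subunits and is induced when T cells are activated, had the widest difference between genotypes of the 7. It lies on chromosome 1, 153740349 to 153745468, plus strand, with 1 annotated transcript of 2339 bases in 5 exons. Rgs16 was at 183, 190.5, 337 and 239.9 TPM in the KO replicates. In the WT replicates it was at 6.10, 99.4, 39.2 and 78.3 TPM. The groups did not overlap, and the gap between the lowest KO and the highest WT library was smaller than the range of the WT libraries. The difference in log2(TPM + 1) was 2.58 (SE 0.72), and the group means were 238 ± 71.0 and 55.8 ± 41.4 TPM (SD, n = 4 each).

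WT 6 was by far the lowest library for Rgs16. Without it the log2 difference was 1.76, and without both WT 6 and WT 9 it was 1.86. Its 2 highest libraries, KO 3 and KO 4, were also those high in myeloid markers. Without them the difference was 2.27, and KO 1 and KO 2 were each above every WT library. Their myeloid marker sums, 372 and 295 TPM, lay below WT 9 (471 TPM) and above WT 6, 7 and 8 (152 to 171 TPM). In WT 9, Cd74 was at 256 TPM. Of the 16 myeloid genes tested, 6 had every KO library above every WT library, beside 2.62% of all genes. The part of myeloid cells in the Rgs16 values of KO 1 and KO 2 was not tested. Without all of WT 6, WT 9, KO 3 and KO 4 the difference was 1.56, from 187 TPM in KO 1 and 2 against 69.3 TPM in WT 7 and 8.

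The promoter of Rgs16 is shown beside that of Rgs2, an R4 gene on the same chromosome whose values did not follow those of Rgs16. RefSeq promoter entries (GRCm38.p6) matched 5 of the 7 members, and the 250 bases before the start are printed 5′ to 3′ on the gene's strand, for Rgs16 at chr1:153740103-153740352 (plus strand) and for Rgs2 at chr1:144004150-144004399 (minus strand). Capitals mark matches on either strand to 5 motifs. The core bound by NFAT factors was searched as GGAAA. The AP-1 motif, bound by Fos and Jun proteins, was searched as TGANTCA. The core of the cyclic AMP response element (CRE) was searched as TGACG. The NBRE core, bound by NR4A receptors, was searched as AAGGTCA. The motif called TATA-like was searched as ATAAAA.
Rgs16: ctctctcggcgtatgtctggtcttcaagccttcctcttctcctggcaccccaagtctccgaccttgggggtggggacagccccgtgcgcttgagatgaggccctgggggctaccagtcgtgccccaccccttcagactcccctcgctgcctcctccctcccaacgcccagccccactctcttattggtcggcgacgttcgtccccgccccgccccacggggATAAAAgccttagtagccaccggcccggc
Rgs2: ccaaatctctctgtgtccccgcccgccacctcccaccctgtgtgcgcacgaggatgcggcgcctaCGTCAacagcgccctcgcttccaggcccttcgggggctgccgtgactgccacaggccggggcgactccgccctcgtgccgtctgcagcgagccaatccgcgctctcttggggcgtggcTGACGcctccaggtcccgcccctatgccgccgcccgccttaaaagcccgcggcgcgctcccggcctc
The Rgs16 window held 1 of these matches, ATAAAA from -29 to -24 relative to the start, a motif that 17.0% of 32851 mouse promoter windows of this length hold. The Rgs2 window held the CRE core at -185 to -181 on the minus strand and at -67 to -63 on the plus strand, and 17.8% of all windows hold at least 1. Neither held the NFAT core (55.6% of all windows), the AP-1 motif (6.75%) or the NBRE core (4.08%), which says only that these letters are not in these windows. The GC box GGGCGG, not capitalised, occurred 2 times in the Rgs16 window, overlapping by 1 base, and 4 times in the Rgs2 window, and 32.7% of all windows hold it. Guanine and cytosine made up 66.4% of the Rgs16 window and 72.4% of the Rgs2 window, where the median over all windows was 52.4%.

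Rgs1, the most abundant member, is an R4 protein known for damping chemokine receptor signals in lymphocytes. It lies on chromosome 1, 144242296 to 144249242, minus strand. Rgs1 was at 598, 527, 273 and 202 TPM in the KO replicates, and at 210.1, 826, 603 and 254 TPM in the WT replicates. Each genotype was split within itself: KO 1 and 2 and WT 7 and 8 were at 527 TPM or more, and the other 4 libraries were at 273 TPM or less, so the groups overlapped throughout. The means were 400.0 ± 192 TPM in KO and 473 ± 294 TPM in WT (SD, n = 4 each), a log2 difference of -0.15 (SE 0.49). Its sign depended on single libraries, at 0.19 without WT 7, 0.04 without WT 8 and 0.13 without KO 4. It was 0.47 without KO 3 and 4, and -0.96 without WT 6 and 9.

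Rgs2, an R4 protein with a preference for Gq, lies 238 kb from Rgs1 on the same strand (chromosome 1, 143999338 to 144004161). Rgs2 was at 26.0, 25.4, 29.9 and 19.4 TPM in the KO replicates, and at 19.5, 41.4, 38.2 and 13.0 TPM in the WT replicates. WT 7 and 8 were the 2 highest libraries, as for Rgs1, and all KO libraries fell between WT 9 and WT 8. The log2 difference was -0.02 (SE 0.35), and -0.66 without WT 6 and 9. Over the 8 libraries, log2 values of Rgs1 and Rgs2 had a Pearson r of 0.76, given as a description of 8 libraries that share 2 genotypes.

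Rgs3, an R4 gene with long and short forms (chromosome 4, 62559847 to 62704001, plus strand), has 8 annotated coding transcripts of 496 to 4698 bases, which the gene-level table does not separate. Rgs3 was at 47.1, 53.2, 47.9 and 56.8 TPM in the KO replicates, and at 39.8, 66.1, 65.3 and 40.9 TPM in the WT replicates. WT 7 and 8 again were highest and WT 6 and 9 lowest, with all KO libraries between them. The log2 difference was -0.01 (SE 0.20), and -0.36 without WT 6 and 9. Thus the 3 R4 genes other than Rgs16 shared the order within WT, 7 and 8 above 6 and 9, and had group means within 1 SD of each other.

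Rgs10, a small R12 protein that acts on Gi alpha subunits, is on chromosome 7 (128373621 to 128418758, minus strand), 109 Mb from Pglyrp1. Rgs10 was at 106, 108, 139 and 77.4 TPM in the KO replicates, and at 222, 206, 106 and 205 TPM in the WT replicates. The WT libraries 6, 7 and 9 were above every KO library, and WT 8 lay within the KO range. The means were 108 ± 25.2 and 184 ± 53.2 TPM (SD, n = 4 each), a log2 difference of -0.74 (SE 0.26). It was -0.99 without WT 8 and -0.45 without WT 6, WT 9, KO 3 and KO 4.

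Rgs14, the other R12 member, carries Ras-binding domains and a GoLoco motif that holds inactive Gi alpha subunits (chromosome 13, 55369732 to 55384687, plus strand). Rgs14 was at 55.1, 51.7, 62.5 and 49.2 TPM in the KO replicates, and at 71.5, 71.1, 69.5 and 81.4 TPM in the WT replicates. The groups did not overlap, and both were narrow, with means of 54.6 ± 5.78 and 73.4 ± 5.44 TPM (SD, n = 4 each). The log2 difference was -0.42 (SE 0.13) and stayed between -0.53 and -0.36 in the 16 alternative settings run. Rn45s, the ribosomal RNA precursor row, moved with it: it was at 39388 to 43283 TPM in KO and 45080.4 to 48280.0 TPM in WT libraries. Rescaling without that row left the Rgs14 difference at -0.43.

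Rgs19, an RZ protein also called GAIP (chromosome 2, 181688419 to 181693977, minus strand), had the smallest ratio of highest to lowest library, 1.48. Rgs19 was at 143, 129.7, 121 and 148 TPM in the KO replicates, and at 139, 166, 179 and 178 TPM in the WT replicates. WT 6 lay within the KO range, and the other WT libraries were above every KO library. The log2 difference was -0.28 (SE 0.13).

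**Figure D2:**
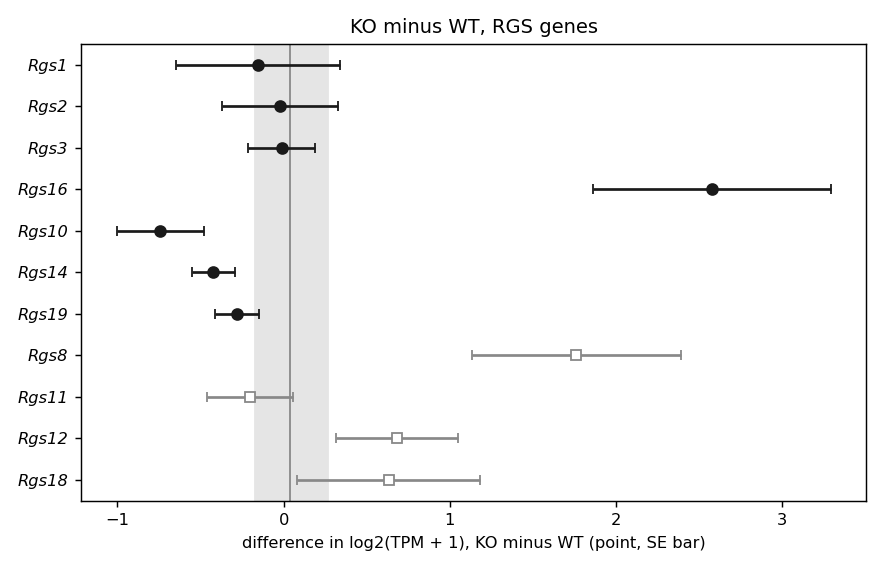
Difference in log2(TPM + 1), KO minus WT (horizontal axis), for the 7 members (filled circles) and the 4 other RGS genes tested (open squares), with the SE of the limma fit as bars. The grey band spans the quartiles over all 10732 genes tested, -0.17 to 0.27, and the line is their median, 0.04. Rgs16 lies at 2.58, Rgs1, Rgs2 and Rgs3 within the band, and Rgs10, Rgs14 and Rgs19 below it.

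The summed RGS transcripts overlapped between the genotypes, and of the 7 shares of that sum only the Rgs16 share did not overlap. The 7 members summed to 1158, 1086, 1011 and 792 TPM in the KO replicates, and to 708, 1475, 1099 and 850.02 TPM in the WT replicates. The means were 1012 ± 158 TPM in KO and 1033 ± 336 TPM in WT (SD, n = 4 each), a difference well inside the spread. Its sign turned when some libraries were left out, at 126 TPM higher in KO without WT 7, 51.8 TPM higher without KO 4 and 88.8 TPM higher without KO 3 and 4. Without WT 6 and 9 the sum was lower in KO, at 1012 against 1287 TPM, a difference of -276 TPM.

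Within that sum, Rgs16 held 15.8%, 17.5%, 33.3% and 30.3% in the KO replicates. In the WT replicates it held 0.861%, 6.74%, 3.57% and 9.21%. Every KO library was above every WT library, and the share was larger in KO 3 and 4 than in KO 1 and 2. Rgs10 held 9.19% to 13.8% in KO and 31.4%, 13.9%, 9.60% and 24.1% in the WT replicates. Rgs1 held 51.6% and 48.6% in KO 1 and 2, 27.0% and 25.5% in KO 3 and 4, and 29.7%, 56.0%, 54.8% and 29.9% in WT 6 to 9. The ratio of Rgs16 to Rgs10, which no library scale can change, ran from 1.72 to 3.10 in KO and from 0.0274 to 0.484 in WT. The ratio of Rgs16 to Rgs1 overlapped between genotypes, at 0.306 to 1.23 in KO and 0.0290 to 0.308 in WT. There KO 1 lay just below WT 9.

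**Figure D3:**
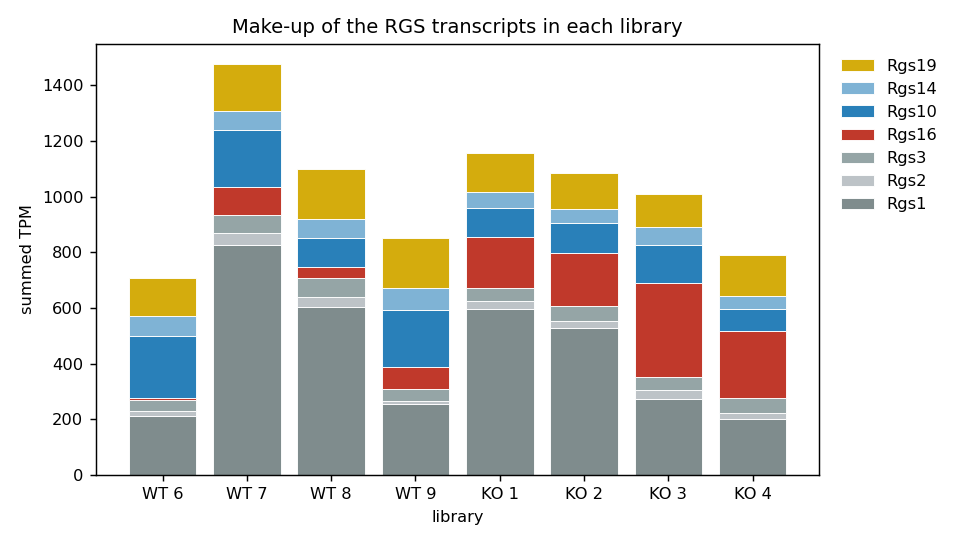
Summed TPM of the 7 RGS genes (vertical axis, from 0) in each library (horizontal axis), with 1 colour per gene. Rgs16 (red) takes 15.8% to 33.3% of the bar in KO libraries and at most 9.21% in WT libraries. Rgs1 (grey, at the base) is the tallest segment in WT 7, WT 8, WT 9, KO 1 and KO 2.

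Of the other 15 RGS family symbols looked up, 9 had a row in the table and 4 were high enough to be tested. None of the 4 passed the limma threshold, and 1, Rgs8, had an unadjusted limma p under 0.05. Rgs8, a short R4 gene best known from brain, lies on chromosome 1 from 153653025 to 153700323, 40.0 kb before Rgs16 on the same strand. It was at 3.47, 3.63, 9.57 and 13.5 TPM in the KO replicates, and at 0, 0.450, 1.39 and 5.90 TPM in the WT replicates. WT 9 lay above KO 1 and KO 2, and the log2 difference was 1.76 (SE 0.63, limma adjusted p = 0.494).

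Rgs11, an R7 gene, was at 13.0 to 23.9 TPM in KO and 13.5 to 25.6 TPM in WT libraries, with overlapping groups. Rgs12 was at 1.73 to 5.05 and 0.450 to 2.36 TPM, and Rgs18, an R4 gene abundant in platelets and myeloid cells, at 0.302 to 5.98 and 0 to 1.80 TPM. Rgs18 was highest in KO 3, at 5.98 TPM, where myeloid markers were high too. In KO 4, where their sum was highest, Rgs18 was at 2.95 TPM. WT 7, at 1.80 TPM, lay above KO 1 and KO 2, at 1.04 and 0.302 TPM. The part of myeloid cells in the Rgs18 values was not tested. Rgs5, Rgs9, Rgs17 and Rgs20 did not exceed 1.20 TPM in any library, and Rgs4 was listed at 0 throughout. Rgs6, Rgs7, Rgs13, Rgs21, Rgs22 and Rgsl1 were not analysed here. These 9 genes together summed to 17.4 to 35.8 TPM per library, where the 7 members summed to 708 to 1475 TPM.

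The partners of RGS proteins were followed in lists of G protein subunits, receptors and effectors. None of their genes passed the all-gene limma threshold. Genes named for an unadjusted p, and not for their level, were picked after their values were seen. Of 15 G protein alpha genes, 9 were tested, with a median log2 difference of 0.08 beside 0.04 over all genes, and 1 (Gnal) had an unadjusted limma p under 0.05, with lower values in KO. Gnai3 and Gnas, the 2 most abundant, were at 118 ± 8.61 and 88.5 ± 6.77 TPM in KO and 106 ± 8.50 and 89.4 ± 19.9 TPM in WT (SD, n = 4 each). Gnai2, the major Gi alpha subunit of leukocytes, named here after its values were seen, had 52.2 ± 7.39 and 50.6 ± 14.3 TPM. Of the 9 beta and gamma genes tested, 0 had an unadjusted limma p under 0.05. Their median log2 difference was 0.25, and all 9 were above 0, as were 5926 of all 10732 genes tested. Gng5 and Gng10 were the most abundant, at 655 ± 58.0 and 103 ± 25.5 TPM in KO and 583 ± 67.8 and 79.1 ± 20.2 TPM in WT. Of 10 effector genes tested, such as adenylate cyclases and phospholipase C beta forms, 0 had an unadjusted limma p under 0.05 (median log2 difference -0.19). Adcy7 was at 61.2 ± 6.14 TPM in KO and 69.3 ± 3.04 TPM in WT, and Rap1a at 63.4 ± 19.5 and 64.1 ± 29.3 TPM.

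Among receptors, 20 of 22 that couple mainly to Gi were tested, with a median log2 difference of 0.20. Ccr1 and Cx3cr1 had higher values in KO at an unadjusted limma p under 0.05 (limma adjusted p of 0.473 and 0.527). Ccr1 was at 9.36, 9.67, 48.2 and 79.1 TPM in the KO replicates and 1.18 to 13.9 TPM in WT, so that KO 1 and 2 lay within the WT range and KO 3 and 4, high in myeloid markers, above it. Cx3cr1 had the same split, at 25.3, 22.1, 47.0 and 50.1 TPM in KO and 2.03 to 31.3 TPM in WT. The part of myeloid cells in both was not tested. Cxcr6, a chemokine receptor of tissue T cells, was at 298, 1447, 1067 and 256 TPM in the WT replicates and at 622 to 841 TPM in KO libraries. Rgs1, Rgs2 and Rgs3 had the same split within WT, 7 and 8 above 6 and 9. Ccr7, the lymph node homing receptor, had the opposite split, at 769, 188, 134 and 652 TPM in WT 6 to 9. Of 13 receptors that raise cyclic AMP, 9 were tested, and Adora2a and Ptger2 had an unadjusted limma p under 0.05. The adenosine receptor gene Adora2a was at 28.8, 29.0, 26.6 and 27.8 TPM in the KO replicates, and at 15.0, 26.1, 20.8 and 15.3 TPM in the WT replicates (log2 difference 0.55, limma adjusted p = 0.494). Gpr65, the acid-sensing receptor and the most abundant of the list, had 56.9 ± 9.31 TPM in KO and 47.1 ± 8.58 TPM in WT.

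Other proteins with an RGS domain include the receptor kinases. Of 15 such genes, 11 were tested, with a median log2 difference of -0.14. Arhgef1, whose product turns off G12 and G13 alpha subunits, was at 64.1, 55.02, 74.5 and 68.2 TPM in the KO replicates. In the WT replicates it was at 136, 138, 136 and 86.5 TPM (log2 difference -0.89, SE 0.18, limma adjusted p = 0.300). The groups did not overlap, with WT 9 nearest the KO libraries. Grk4, a receptor kinase gene, was at 85.1 ± 20.6 TPM in KO and 71.9 ± 10.4 TPM in WT. Of 7 further regulators tested, among them nucleotide exchange factors, GoLoco proteins and arrestins, Gpsm1 had lower values in KO at an unadjusted limma p under 0.05 (2.40 ± 0.471 and 4.47 ± 0.825 TPM, limma adjusted p = 0.476). Ric8 and Gpsm3, the most abundant, were at 76.7 ± 9.29 and 44.5 ± 5.84 TPM in KO and 79.7 ± 13.9 and 42.1 ± 12.2 TPM in WT.

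The level of Rgs16 followed a list of 14 activated T cell genes across libraries. The mean log2(TPM + 1) of that list, which holds no RGS gene, was 6.92, 6.89, 7.31 and 7.13 in the KO replicates and 4.54, 6.26, 6.00 and 5.57 in the WT replicates. WT 6 was lowest and KO 3 highest for the list and for Rgs16 alike, with a Pearson r of 0.96 over 8 libraries and 0.90 after the mean of each genotype was subtracted. The list was itself written with earlier results of these data known, and both sets of values come from the same 8 libraries. Of its 14 genes 0 passed the limma threshold over all genes, and 12 had higher values in KO at an unadjusted p under 0.05, beside 6.01% of all genes. Of the 16 myeloid genes tested and the 12 natural killer genes, 0 passed the threshold over all genes, and 11 and 8 had higher values in KO at that unadjusted p. Lower values in KO at that p were found for 1 myeloid gene, Apoe, and 0 natural killer genes, beside 3.07% of all genes. Apoe was at 0.693 to 4.21 TPM in KO and 3.47 to 49.6 TPM in WT (limma adjusted p = 0.439). By summed TPM the myeloid and natural killer lists were highest in KO 3 and 4, with natural killer sums of 996, 936, 3021 and 3388 TPM in the KO replicates. Fcer1g and Tyrobp are on both lists. In the KO replicates Fcer1g was at 77.3, 65.9, 996 and 1314 TPM, and Tyrobp at 83.2, 84.9, 1280 and 1291 TPM. The mean log2(TPM + 1) of the natural killer list was 4.15, 4.31, 5.27 and 5.06 in the KO replicates and 3.14 to 3.26 in WT. The r between Rgs16 and the myeloid list was 0.68 (0.35 within genotypes). The part of activation state or of other cells in the Rgs16 values was not tested. Rgs3 was high where the 10 naive and memory genes were low (Pearson r of -0.85 over 8 libraries, -0.91 after subtracting genotype means). Rgs16 had an r of -0.55 with that list (-0.49 within genotypes). Rgs10 had an r of 0.60 with the naive and memory list (0.54 within genotypes) and of -0.71 with the activated list (-0.31 within genotypes). Rgs3 had an r of 0.40 with the activated list (0.77 within genotypes). For Rgs1, Rgs2, Rgs14 and Rgs19 the r with the activated list was 0.21, 0.30, -0.73 and -0.41. Within genotypes it was 0.55, 0.59, 0.05 and 0.56 for these 4.

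**Figure D4:**
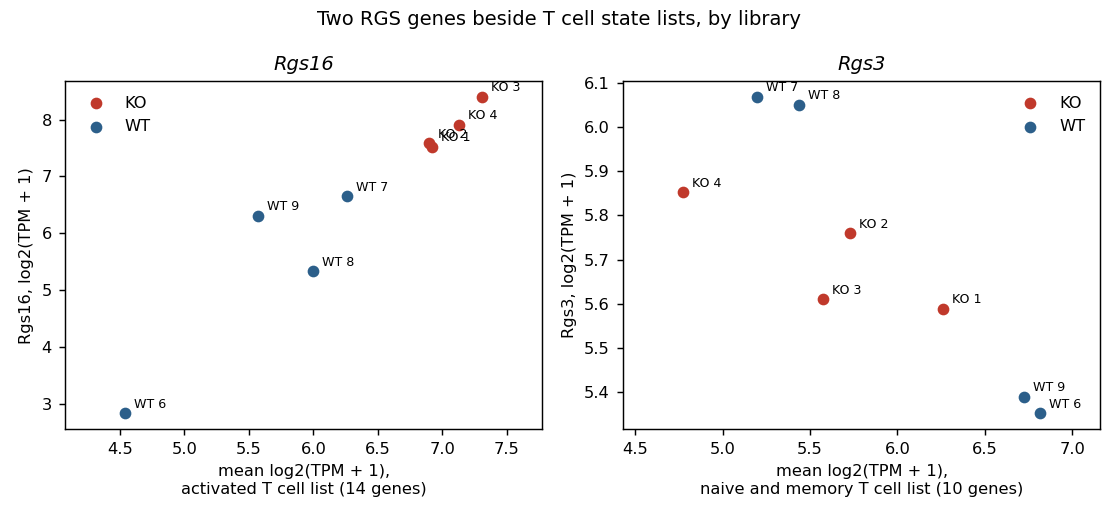
Left, log2(TPM + 1) of Rgs16 against the mean log2(TPM + 1) of 14 activated T cell genes. Right, log2(TPM + 1) of Rgs3 against the mean of 10 naive and memory T cell genes. Each point is a library, KO in red and WT in blue, with no fitted line. WT 6 is lowest for Rgs16 and for the activated list, and WT 7 and 8 are highest for Rgs3.

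The genes most like each member were taken as the 3 with the highest Pearson r of log2(TPM + 1) over the 8 libraries, out of 7821 whose mean reached 5 TPM. With 8 points and so many candidates, high values arise for any gene, so the lists only describe these libraries. For Rgs16 they were Tnfrsf9 (r = 0.98), the costimulatory receptor 4-1BB, Ccl3 (0.97), a chemokine of activated T cells, and Lag3 (0.97), an inhibitory receptor. Tnfrsf9 was at 243, 329, 321 and 360 TPM in the KO replicates, and at 34.1, 157, 94.5 and 117 TPM in the WT replicates, with WT 6 lowest and WT 7 highest within WT as for Rgs16. For Rgs1 they were Ranbp9, Uqcrh and Cd28 (0.97 each), and Cd28, the main costimulatory receptor, was at 124, 115, 85.3 and 65.2 TPM in KO 1 to 4 and at 64.2, 122, 129.9 and 73.2 TPM in WT 6 to 9. Thus Cd28 repeated the split within both genotypes that Rgs1 showed.

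For Rgs3 the closest genes were Hopx (0.99), Cd3g (0.99), part of the T cell receptor complex, and Gpsm2 (0.98), itself a GoLoco protein that binds Gi alpha subunits. Gpsm2 was at 7.62, 12.4, 8.97 and 11.4 TPM in KO 1 to 4 and at 4.88, 17.1, 20.1 and 4.72 TPM in WT 6 to 9. For Rgs2 they were Ccser2 (0.97), Ehmt2 (0.96) and H2afv (0.96), and for Rgs10 Sars2 (0.96), Adck1 (0.94) and Gbe1 (0.93). For Rgs14 they were Rn45s (0.96), Supt6 (0.94) and Rnf167 (0.94), and for Rgs19 Stk10 (0.94), Tet3 (0.92) and Trim68 (0.92). No gene was among the closest 3 of more than 1 member.

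**Figure D5:**
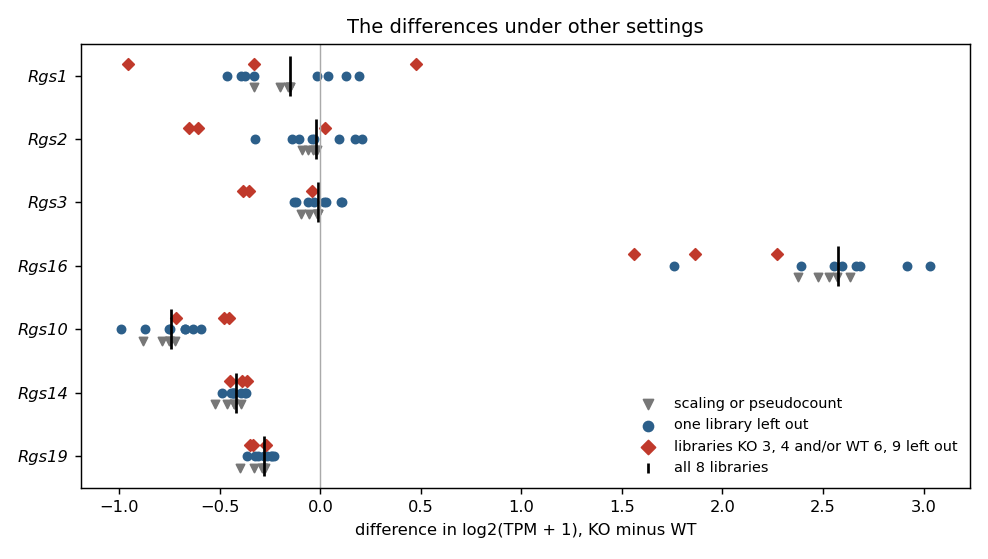
Difference in log2(TPM + 1), KO minus WT (horizontal axis), of each member with all 8 libraries (black bars) and under 16 alternatives: other scaling or pseudocount (grey triangles), 1 library left out (blue circles), or KO 3 and 4, WT 6 and 9 or all 4 left out (red diamonds). Rgs16 stays at 1.56 or more and Rgs10, Rgs14 and Rgs19 stay below 0, while Rgs1, Rgs2 and Rgs3 have values on both sides of 0.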

How the data were processed

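RNA was measured in 8 libraries, 4 KO and 4 WT, prepared with a modified SMART-Seq2 method and sequenced in pairs of 38 bases, per the labels' protocols. The authors deposited 1 table of a score, called TPM-normalized in its name. It holds integers whose library totals run from 2223162 to 3342847, so the values are not TPM as they stand, and whether they are rounded counts is not known. Per the submitters' processing notes, RSEM 1.3.3 and mm10 were used. Which aligner and annotation were used, and how values were rounded, is not given in the sources used here. The read depth is unknown, so no counting intervals are given. Libraries were scaled to total 1000000, and log2(TPM + 1) was compared with limma 3.58.1 in R 4.3.3 (mean trend, group only, Benjamini-Hochberg over all genes reaching 1 TPM in 4 or more libraries, threshold 0.05). Fold changes on this scale understate low genes. With libraries left out, the filter required as many libraries as the smaller group held. The script was tested on simulated data. Tables and figures used Python 3.11.15, pandas 2.3.3, numpy 2.4.6 and matplotlib 3.10.9. Coordinates are GENCODE's for GRCm38 (mm10), 1-based, and promoters are RefSeq's for GRCm38.p6.

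The members, lists and settings were chosen with earlier results of these data known. The text names every member, every other RGS gene in the table, the 2 most abundant tested genes of each partner list (or up to 4 that pass), and the 3 genes most like each member, skipping clone, model and small RNA names. Genes named for an unadjusted p, Gnai2, Cd4, Foxp3 and the within-genotype matches were added after their values were seen. Alternatives varied pseudocount, filter, scaling and limma options and left out libraries. Rescaling without Rn45s was added after the data were seen.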

Additional observations from a re-analysis of the deposited data

Results flagged for a closer look

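In 100 groups of 4 libraries, 1 library was looked for whose gap to its nearest neighbour passed Dixon's 95% critical share of the group's range. There were 9 such cases. For independent normal values the rule would flag about 1 in 20, or 5. These levels and shares of 1 sum are neither, so nothing is read from the number of cases. Rgs10 was at 106 TPM in WT 8, where the other WT libraries were at 205 to 222 TPM. Rgs10 held 13.8% of the summed RGS transcripts in KO 3 (9.19% to 9.97% in the other KO libraries), and Rgs19 held 18.7% in KO 4 (11.9% to 12.3%). Arhgef1 was at 86.5 TPM in WT 9 (136 to 138 TPM in the other WT libraries). Cd79b was at 16.3 TPM in KO 1 (5.89 to 6.28 TPM), Hba-a1 at 456 TPM in WT 9 (3.25 to 44.5 TPM) and Fn1 at 69.4 TPM in KO 4 (1.04 to 5.09 TPM). Pf4 at 11.4 TPM and Fn1 at 1.18 TPM stood alone in WT 9, both listed at 0 in the other WT libraries. With those at 0, any value above 0 is flagged by this rule.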

How the results depend on the processing

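No paired analysis was possible because no replicate number occurs in both genotypes (1 to 4 in KO, 6 to 9 in WT). The settings that leave out KO 3 and 4 or WT 6 and 9 were chosen with earlier results known. The number of genes past the limma threshold was 3 with all libraries, 2 to 9 with 1 library left out, 5 when KO 3 and 4 were dropped, 5 when WT 6 and 9 were, and 10 when all 4 were. It was 9 without KO 2 and 5 without KO 1. No member passed in any of the 20 fits that gave this count. The Rgs16 log2 difference was 1.76 to 3.03 with 1 library left out. Rgs10, Rgs14, Rgs16 and Rgs19 kept their sign in all 16 alternatives. The Rgs2 difference was -0.66 without WT 6 and 9 and -0.61 without all 4 libraries, and the Rgs3 difference -0.36 and -0.39. The Rgs16 share of the summed transcripts differed by 19.1 percentage points with all libraries, by 11.6 without KO 3 and 4 and by 11.5 without all 4. Quantile normalization moved the median over all genes from 0.04 to -0.07, and the Rgs16 difference to 2.47. Depth is unknown, so the precision of low values such as Rgs8 cannot be stated.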

Other observations

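After the mean of each genotype was subtracted, other genes came closest to most members. For Rgs16 they were Pigl, Suv420h2 and Rbm34 (within-genotype r of 0.997, 0.97 and 0.97), whose r over the 8 libraries was 0.22, 0.48 and 0.73. Tnfrsf9, the closest over the 8 libraries, had a within-genotype r of 0.96. For Rgs3 they were S100a4, Il2rb and Ppib (0.99 each), and for Rgs2 Mctp2, Pmaip1 and H2-Q5 (0.99, 0.99 and 0.98). Il2rb, the interleukin-2 receptor beta chain, ranged from 660 to 822 TPM in KO. Its WT values were 363, 769, 773 and 403 TPM for replicates 6 to 9, with 7 and 8 high and 6 and 9 low as for Rgs3. The ratio of Rgs1 to Rgs2, 2 R4 genes 238 kb apart, was 23.0 and 20.8 in KO 1 and 2 and 9.14 and 10.4 in KO 3 and 4. In WT 6 to 9 it was 10.8, 20.0, 15.8 and 19.6.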
